A study of Mus musculus with 20 samples.

Results

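The 32 genes described here code for the enzymes and carriers of glycolysis, of its lactate and pyruvate branch, and of the pentose phosphate pathway. They were listed by name and pathway step, but with earlier results of these data known. Their RNA was measured in VE-cadherin+ cells, labelled endothelial, from the bone marrow of C57/Bl6 mice aged 8 to 10 weeks. The 20 Affymetrix arrays fall into 4 groups of 5 biological replicates. The non-irradiated group came from mice that received no radiation. The other mice were given 5 Gy to the whole body and sampled 6 hours, 24 hours or 14 days later. The labels do not say whether an array holds RNA of 1 animal or of a pool. Of the 32 genes, 29 had a probe set assigned to that gene alone, among 18194 genes measured in this way. Gpi1, Eno1 and G6pdx were not matched to such a probe set and were not analysed here. Of the 29 genes, 11 had 1 probe set and 18 had several, 66 in all, and the brightest was used for each gene.

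Glycolysis brings glucose into the cell, traps it as a phosphate, splits it and harvests ATP on the way to pyruvate. Most steps are carried out by isozymes from different genes, which differ in regulation and in the tissues that use them. Pyruvate is reduced to lactate and exported, or enters the mitochondrion, where pyruvate dehydrogenase kinases hold back its oxidation. The pentose phosphate pathway branches off after the first phosphorylation and supplies NADPH for antioxidant defence and ribose for nucleotides. Endothelial cells are known to draw most of their ATP from glycolysis, and red cell precursors also depend on it. Several of these genes are textbook targets of the hypoxia-inducible factor HIF-1, and Tigar is a textbook target of p53.

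The signals are linear probe set intensities, scaled on every array to the same trimmed mean, so a level is compared between groups for one gene and never between genes. Changes are differences of mean log2(signal + 1), tested with limma over all 18194 genes, and "rose" or "fell" means a Benjamini-Hochberg adjusted p under 0.05. Each gene's spread is pooled over all 20 arrays, so scatter in 1 group widens the SE of every comparison of that gene. The p53 target Cdkn1a, a check on the irradiation labels, rose by 2.66 ± 0.10 (SE, n = 5 against 5) at 6 hours and by 2.41 ± 0.10 at 24 hours (adjusted p = 2.74e-16 and 8.23e-16). The gene of VE-cadherin, Cdh5, rose by 1.49 ± 0.12 at 6 hours and fell by 1.31 ± 0.12 at day 14 (adjusted p = 6.26e-10 and 2.66e-08). All 12 endothelial markers were detected, and so were leukocyte markers: none of the 10 was at background on all 5 arrays of a group. In such bulk RNA, fewer cells of a type and less RNA per cell cannot be told apart. Replicates scattered most at 6 hours, where the median within-group SD of the 29 genes was 0.473 on the log2 scale, against 0.152 to 0.202 in the other groups.

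The stretch of DNA upstream of 4 of these genes is printed here because Slc2a1 and Ldhb were the members with the largest rises at 6 and 24 hours, and Slc16a1 and Rpia fell at both times and rose at day 14. Each line gives the 250 bases that precede the RefSeq transcription start in build GRCm38.p6, read 5′ to 3′ on the gene's own strand. Capitals mark the core of the hypoxia response element (ACGTG or GCGTG on either strand) and the GATA word (AGATAA or AGATAG, or the same with T as its first letter), also on either strand. Slc2a1 lies on the plus strand at chr4:119108495-119108744, Ldhb on the minus strand at chr6:142507958-142508207, Slc16a1 on the plus strand at chr3:104638414-104638663 and Rpia on the minus strand at chr6:70792176-70792425.
Slc2a1: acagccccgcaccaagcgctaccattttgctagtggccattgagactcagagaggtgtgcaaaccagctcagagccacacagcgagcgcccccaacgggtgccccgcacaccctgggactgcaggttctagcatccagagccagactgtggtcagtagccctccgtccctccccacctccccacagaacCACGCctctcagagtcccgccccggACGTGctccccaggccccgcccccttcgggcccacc
Ldhb: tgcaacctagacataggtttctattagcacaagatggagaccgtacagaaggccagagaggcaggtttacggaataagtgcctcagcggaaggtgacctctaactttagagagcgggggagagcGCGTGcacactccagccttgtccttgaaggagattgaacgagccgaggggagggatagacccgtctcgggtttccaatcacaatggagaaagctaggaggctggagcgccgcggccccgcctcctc
Slc16a1: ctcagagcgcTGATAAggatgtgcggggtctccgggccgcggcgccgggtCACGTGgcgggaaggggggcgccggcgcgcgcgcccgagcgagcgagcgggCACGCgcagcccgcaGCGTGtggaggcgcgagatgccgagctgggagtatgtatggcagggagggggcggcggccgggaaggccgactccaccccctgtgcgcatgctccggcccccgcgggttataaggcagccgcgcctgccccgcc
Rpia: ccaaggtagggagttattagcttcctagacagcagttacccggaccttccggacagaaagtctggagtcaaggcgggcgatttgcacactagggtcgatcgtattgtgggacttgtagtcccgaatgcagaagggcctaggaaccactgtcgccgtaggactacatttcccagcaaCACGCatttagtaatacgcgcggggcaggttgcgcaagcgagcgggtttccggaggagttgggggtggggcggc
The window of Slc2a1 held 2 hypoxia cores, and those of Ldhb and Rpia held 1 each. That of Slc16a1 held 4, of which 1 pair forms a single CACGTG word read on both strands, and 1 GATA word. Windows were at hand for 28 of the 29 measured genes, some with several starts, 40 windows in all. A hypoxia core was in 32 of the 40 (80%) against 38.6% of the 32851 windows of all genes. The E-box CACGTG, which contains the core, was in 4 of 40 (10%) against 6.02%, a GATA word in 9 of 40 (22.5%) against 26.5%, and the KLF word CCNCNCCC in 30 of 40 (75%) against 45.9%. These windows were not matched for base composition, and a match of letters is a description, not a binding site.

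At 6 hours 5 of the 29 genes rose, 12 fell and 12 did not pass the test, where 12.9% of all genes rose and 14.5% fell (27.4% called). The median change of the 29 was -0.34, against -0.02 over all genes. At 24 hours 8 rose, 7 fell and 14 did not pass, with 15.7% of all genes higher and 13.8% lower (29.5% called). The median was then 0.20, against -0.07 over all genes. At day 14, 10 rose and 0 fell in limma (2, Hk2 and Pfkfb4, were lower at an unadjusted p under 0.05), with 9.47% of all genes higher and 13.0% lower (22.4% called), and the median was 0.28 against -0.18. The 3 comparisons share the non-irradiated arrays. Between irradiated groups, 12 genes were higher and 1 lower at 24 hours than at 6 hours (background 13.7% and 10.1%, 23.8% called), and 11 were higher and 9 lower at day 14 than at 24 hours (15.2% and 21.7%, 36.9% called). Only Slc2a3, Hk2, Pfkl, Pfkfb4 and Tigar passed at none of the 3 times against the non-irradiated arrays.

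How the arrays are put on one scale moves these counts. Centring every array on its median raised the median change of all genes by 0.25 at 6 hours, 0.38 at 24 hours and 0.90 at day 14, and quantile normalization raised it by 0.14, 0.20 and 0.37. After centring, 8 of the 29 genes rose and 7 fell at 6 hours, 17 rose and 6 fell at 24 hours, and 23 rose and 0 fell at day 14. Of all 18194 genes, 3531 then rose and 1617 fell at 6 hours. The numbers for all genes were 4949 and 1139 at 24 hours, and 8211 and 461 at day 14. The share of higher genes among all calls went from 47.0% to 68.6% at 6 hours, from 53.2% to 81.3% at 24 hours and from 42.2% to 94.7% at day 14 (61.1% with quantile normalization). Without the fourth 6-hour array only 3 of the 29 genes rose at 6 hours. The level of each gene on each array is shown in the plot by array, and the changes by pathway step in the plot of changes.

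**Figure D1:**
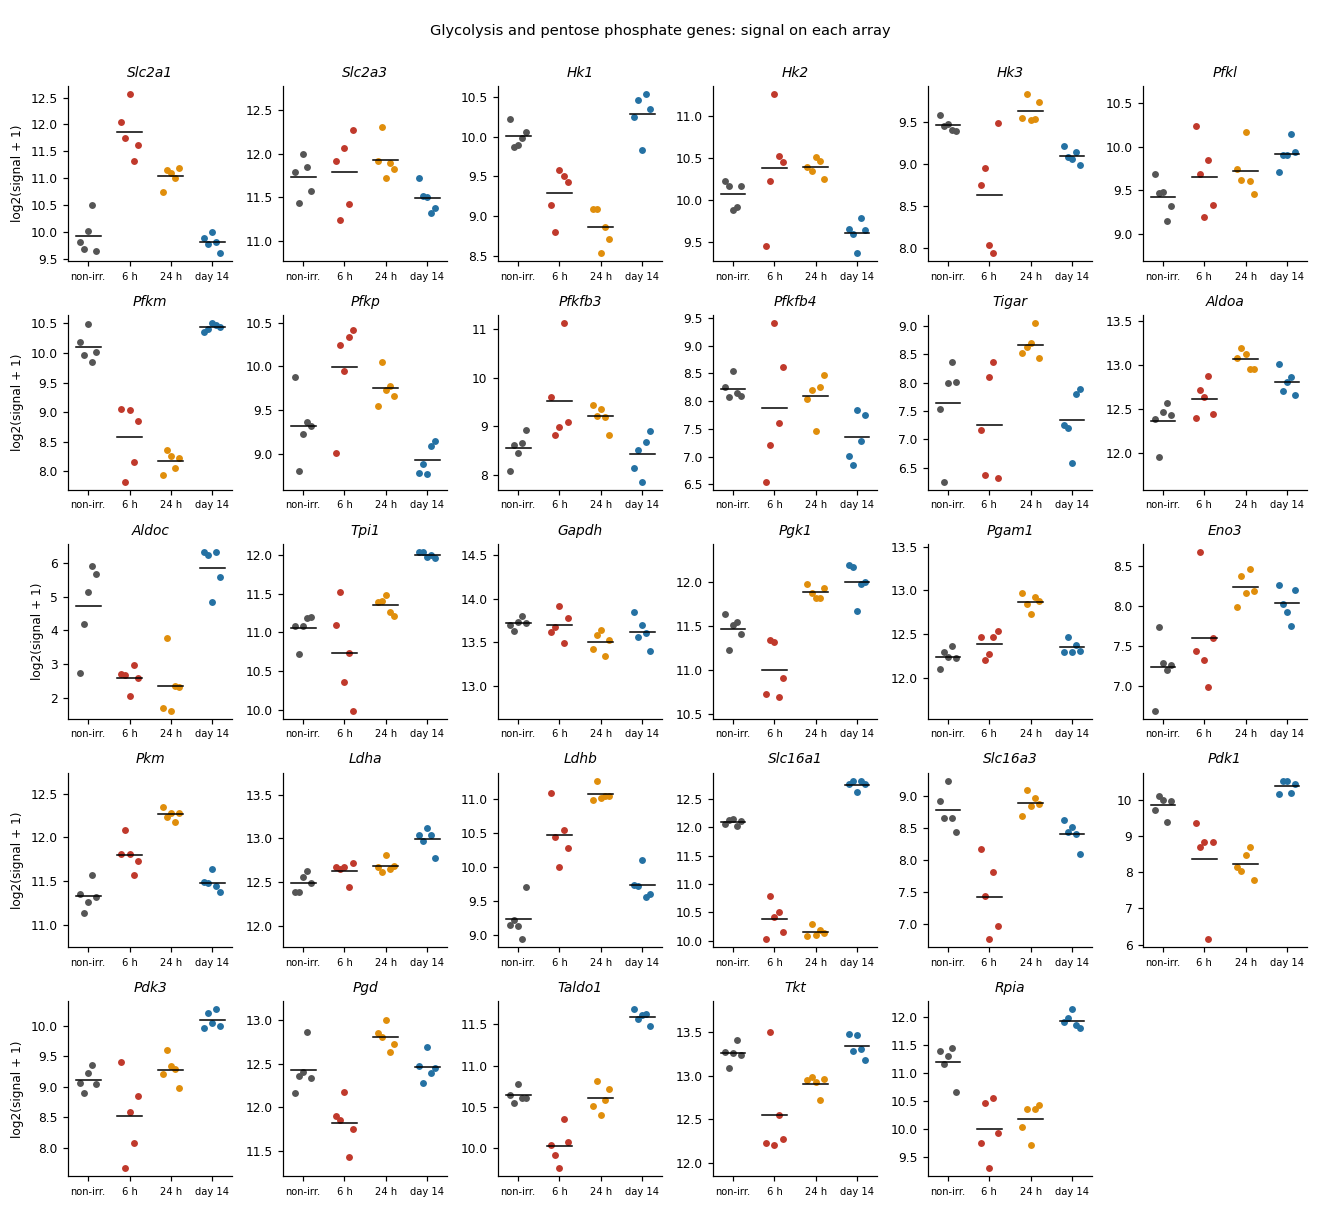
Signal of each of the 29 measured genes on each of the 20 arrays, as log2(signal + 1) on the vertical axis, with the 4 groups along the horizontal axis and a line at the mean of 5 arrays; the vertical scales differ between genes. Slc2a1 and Ldhb stand highest at 6 or 24 hours, while Slc16a1, Pfkm, Hk1, Pdk1 and Rpia are lowest there and return to or above the non-irradiated level by day 14.

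**Figure D2:**
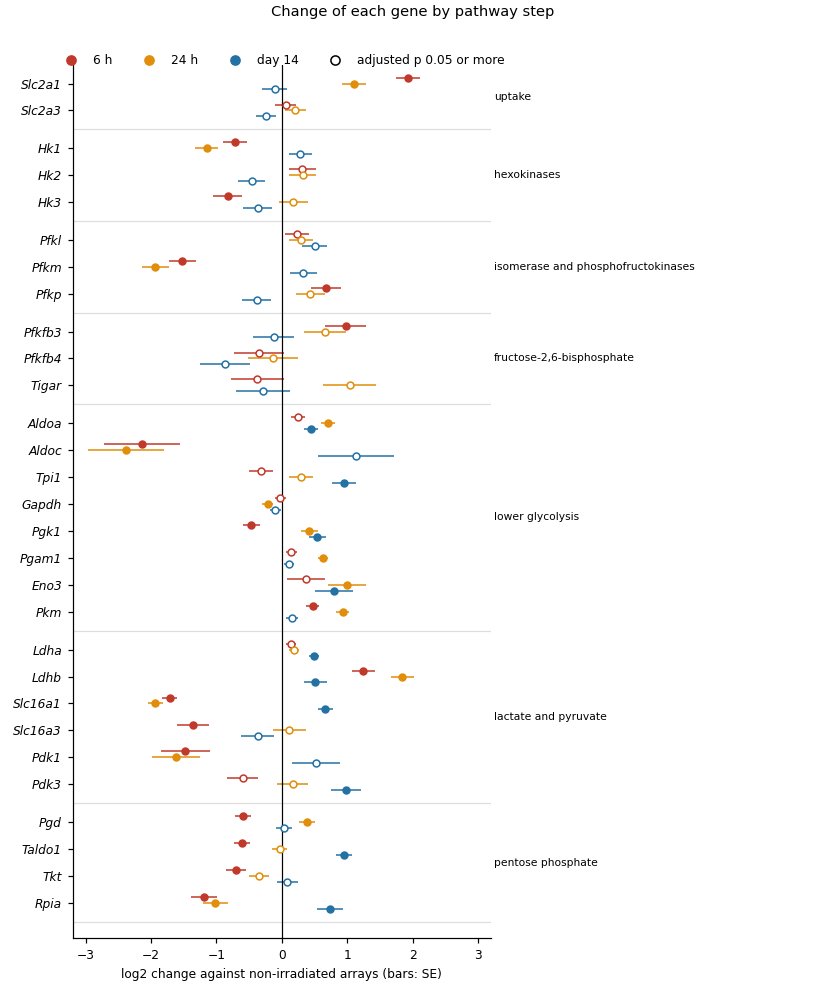
Change of each gene against the 5 non-irradiated arrays, as the log2 difference with its SE, ordered by pathway step, with filled points for adjusted p under 0.05. At 6 hours 12 of the 29 points are filled left of 0 and 5 right of it, and at day 14 the 10 filled points all lie right of 0; the values of Aldoc are near background and have no exact size.

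Slc2a1, which codes for the main basal glucose transporter, showed the largest rise of the 29 genes at 6 hours. Its signal was 893, 817, 1031, 1439 and 793 on the non-irradiated arrays and 4226, 3430, 6058, 2555 and 3138 at 6 hours. It was 1700, 2261, 2195, 2051 and 2323 at 24 hours and 944, 868, 1018, 900 and 777 at day 14. Every array at 6 and 24 hours lay above every non-irradiated one, and the day 14 arrays overlapped with them. Slc2a1 rose 3.82-fold at 6 hours (1.93 ± 0.18, adjusted p = 8.22e-09) and 2.16-fold at 24 hours (1.11 ± 0.18, adjusted p = 3.43e-05), and it was lower at 24 than at 6 hours by a log2 difference of -0.83 ± 0.18 (adjusted p = 0.00159). At day 14 its change was -0.11 ± 0.18, which turned to 0.79 when arrays were centred on their medians. The 3 probe sets of Slc2a1 gave 1.50 to 1.94 at 6 hours and 0.82 to 1.22 at 24 hours. Slc2a3, a transporter of higher glucose affinity, ranged from 2422 to 5039 over all 20 arrays and gave 0.06, 0.20 and -0.24 at the 3 times (SE 0.16, all with adjusted p of 0.286 or more). Its 4 probe sets disagreed at day 14, where the other 3 gave -0.74, -1.58 and -0.08. The day 14 change of Slc2a3 passed as a fall with quantile normalization (-0.45), with the mean of probe sets (-0.66) and without cross-hybridizing probe sets (-0.74), at adjusted p = 0.0424, 4.30e-05 and 0.0221, and centring turned it to 0.66 (adjusted p = 0.00341).

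Of the 3 hexokinases, which trap glucose by phosphorylation, Hk1 and Hk3 fell at 6 hours and Hk2 passed the test at no time. The signal of Hk1, the broadly expressed form, was 1032 ± 105 (SD, n = 5) on non-irradiated arrays, 637 ± 130 at 6 hours, 468 ± 77.5 at 24 hours and 1267 ± 223 at day 14. Hk1 fell by 0.72 ± 0.18 at 6 hours (adjusted p = 0.00303) and by 1.15 ± 0.18 at 24 hours (adjusted p = 1.24e-05), with no overlap between those arrays and the non-irradiated ones. The 6-hour call was lost after centring (adjusted p = 0.0539), and the other probe set of Hk1 gave -0.18, -0.62 and 0.64 at the 3 times. Hk2, the form induced by growth signals and hypoxia, ranged from 942 to 1202 without irradiation and from 1215 to 1459 at 24 hours. These ranges did not overlap, yet the change of 0.32 ± 0.21 did not pass the test (adjusted p = 0.269). This 24-hour change of Hk2 passed in 2 of 30 limma alternatives, centring (adjusted p = 0.0124) and the 2 groups alone (0.0321). Hk3, a form typical of myeloid cells, had signals of 429, 495, 260, 244 and 721 at 6 hours, against 672 to 766 in the non-irradiated group. At 6 hours 4 of the 5 arrays lay below that range. Hk3 fell by 0.83 ± 0.22 at 6 hours (adjusted p = 0.00524, lost after centring and in the fit of the 2 groups alone, at most 0.0599) and was higher at 24 than at 6 hours by 1.00 ± 0.22 (adjusted p = 0.00129).

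Of the phosphofructokinases, which commit glucose to glycolysis, Pfkm showed the largest change. The signal of Pfkm, the muscle-type subunit, was 1168, 1000, 1437, 921 and 1034 without irradiation and 530, 225, 521, 285 and 460 at 6 hours. It was 243, 328, 305, 265 and 300 at 24 hours and 1308, 1351, 1456, 1418 and 1380 at day 14. All 10 arrays at 6 and 24 hours lay below every other array. Pfkm fell by 1.52 ± 0.21 at 6 hours and by 1.94 ± 0.21 at 24 hours (adjusted p = 2.91e-06 and 5.32e-08), and was 4.81-fold higher at day 14 than at 24 hours (2.27 ± 0.21, adjusted p = 2.68e-09). Pfkp, the platelet-type subunit, rose by 0.67 ± 0.23 at 6 hours (adjusted p = 0.0263), but 8 of 30 alternatives ended that call (adjusted p up to 0.113) and the groups overlapped. Pfkl, the liver-type subunit, gave 0.24, 0.30 and 0.50 (SE 0.19), and at day 14 its lowest array, 838, was above the highest non-irradiated one, 825, with an adjusted p of 0.0536. That day 14 change passed in 10 of 30 alternatives.

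The next 3 genes set the level of the sugar bisphosphate that activates phosphofructokinase. Pfkfb3, which makes it, rose by 0.98 ± 0.32 at 6 hours (adjusted p = 0.0217). Its 6-hour signals were 772, 447, 505, 2231 and 542, against 270 to 485 without irradiation, so that 1 array stood far above the rest. Without that array, the fourth, the change was 0.57 with an adjusted p of 0.0754, and the call was also lost without the first non-irradiated array and in the fit of the 2 groups alone (adjusted p up to 0.0865). The other probe set of Pfkfb3 gave 1.69 at 6 hours, from 288 ± 170 to 802 ± 244, and the mean of both gave 1.34 (adjusted p = 6.55e-05). Pfkfb4, another gene for this activity, ranged from 92.5 to 680 at 6 hours and passed at no time, with changes of -0.34, -0.14 and -0.87 (SE 0.38).

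Tigar codes for a phosphatase that lowers the same activator and directs glucose to the pentose phosphate pathway. The brightest of its 3 probe sets read 185, 75.1, 253, 329 and 258 without irradiation and 143, 81.4, 272, 327 and 78.3 at 6 hours. It read 365, 396, 413, 530 and 347 at 24 hours and 152, 146, 94.5, 223 and 235 at day 14. The 24-hour arrays lay above all others, but the change of 1.04 ± 0.41 against the non-irradiated group had an adjusted p of 0.058, and over the alternatives it ran from 3e-04 to 0.209. At 24 hours Tigar was higher than at 6 hours by 1.41 ± 0.41 and at day 14 lower than at 24 hours by a log2 difference of -1.32 ± 0.41 (adjusted p = 0.0126 and 0.012); the former was lost with the mean of probe sets (adjusted p = 0.0604) and the latter under both other scalings (up to 0.132). The other 2 probe sets differed from the brightest at 6 hours: they gave 1.17 and 1.23 there, where the brightest gave -0.37, and 1.69 and 1.45 at 24 hours. Both were dim, at 55.0 ± 39.8 and 65.2 ± 35.5 without irradiation, where the array background was 23.3 to 41.6. The size of their changes is thus not exact. With the mean of the 3 probe sets, 2 of them dim, the 24-hour change passed, at 1.39 (adjusted p = 0.000296).

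**Figure D3:**
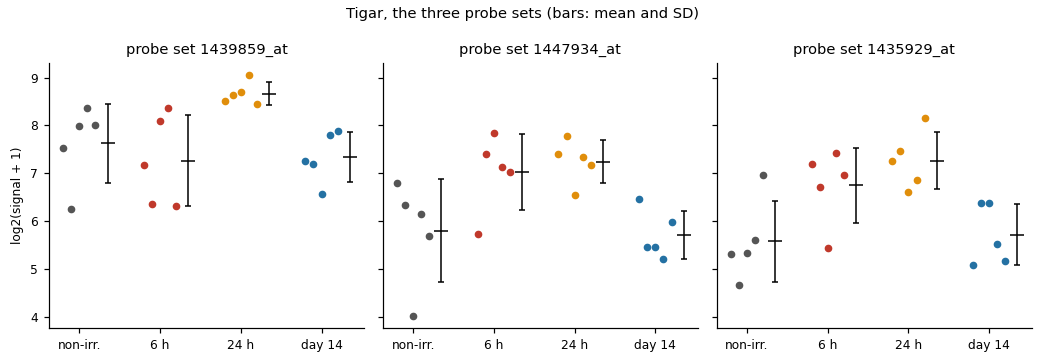
log2(signal + 1) of the 3 Tigar probe sets on each of the 20 arrays, with bars for the mean and SD of 5 arrays per group. In the brightest, at left, the 6-hour arrays spread over the same range as the non-irradiated ones. In the other 2, which are dim without irradiation, the mean at 6 hours is higher by 1.23 and 1.17. All 3 are high at 24 hours.

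In the lower part of glycolysis, from aldolase to pyruvate kinase, 5 of the 8 measured genes rose and 2 fell at 24 hours, where 15.7% of all genes rose and 13.8% fell. Pkm, the pyruvate kinase of most tissues, read 2615, 2247, 2454, 3030 and 2550 without irradiation and 3594, 4342, 3572, 3038 and 3395 at 6 hours. It read 5204, 4794, 4955, 4638 and 4953 at 24 hours and 2870, 2841, 3182, 2785 and 2646 at day 14. The 24-hour arrays were the highest of all, and those of day 14 overlapped with the non-irradiated ones. Pkm rose by 0.47 ± 0.10 at 6 hours and 0.93 ± 0.10 at 24 hours (adjusted p = 5.18e-04 and 3.14e-08), and was lower at day 14 than at 24 hours by a log2 difference of -0.78 ± 0.10 (adjusted p = 4.45e-07, lost after centring at 0.141). Pgam1, the phosphoglycerate mutase, rose from 4853 ± 320 to 7501 ± 466 at 24 hours (0.63 ± 0.08, adjusted p = 5.69e-07) with no overlap. At 6 hours and day 14 it stood at 0.15 ± 0.08 and 0.11 ± 0.08, neither of which passed.

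Aldoa, the main aldolase, rose from 5307 ± 805 to 8596 ± 651 at 24 hours (0.71 ± 0.11, adjusted p = 7.91e-06) and stood at 7209 ± 715 at day 14 (0.45 ± 0.11, adjusted p = 0.00322). All its probe sets are of the cross-hybridizing kind. The other sets gave 0.72, 0.73, 0.44 and -0.48 at 24 hours and 0.39, 0.44, 0.23 and -0.19 at day 14, in the same order. The set that went down was the dimmest. Tpi1, the triose phosphate isomerase, was 2140 ± 270 without irradiation and 4101 ± 99.9 at day 14, a rise of 0.95 ± 0.18 (adjusted p = 4.75e-04) with no overlap. Eno3, the muscle-type enolase, rose from 154 ± 39.5 to 302 ± 38.6 at 24 hours (1.00 ± 0.29, adjusted p = 0.00923) and to 263 ± 37.2 at day 14 (0.80 ± 0.29, adjusted p = 0.0476). The day 14 call of Eno3 was lost in 15 of 30 alternatives, with an adjusted p of up to 0.124. Pgk1, the phosphoglycerate kinase that forms the first ATP, fell by 0.47 ± 0.13 at 6 hours (adjusted p = 0.00695) and rose by 0.42 ± 0.13 at 24 hours and 0.54 ± 0.13 at day 14 (adjusted p = 0.0138 and 0.0036). Its other 2 probe sets gave 0.17 and 0.04 at 6 hours, so the fall was seen in 1 probe set of 3, while at 24 hours and day 14 all 3 gave between 0.42 and 0.59. The day 14 call of Pgk1 was lost with quantile normalization (adjusted p = 0.0724).

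Aldoc, the brain-type aldolase, was in its brighter probe set close to the background of the arrays, taken as the 95th percentile of 27 bacterial control probe sets (17.5 to 51.5 by array). Its signals were 5.62, 17.2, 34.3, 59.7 and 50.1 without irradiation, 3.12 to 6.79 at 6 hours, 2.05 to 12.7 at 24 hours, and 80.6, 75.2, 27.7, 79.7 and 47.0 at day 14. It was not above background on any array at 6 or 24 hours, so its calls at those times carry no fold. The other probe set was also dim, with 17.5 ± 27.3 without irradiation and 35.3 ± 33.6 at 6 hours (a log2 difference of 1.30). With the mean of both the 6-hour call was lost (adjusted p = 0.582). Taking each array's background as the bound, Aldoc in its brighter set was at least 2.14-fold higher at day 14 than at 24 hours (limma adjusted p = 2.19e-05). The other set read 2.37 ± 1.23 at 24 hours and 7.90 ± 6.43 at day 14. Both means were under the lowest array background of 17.5, so that set gives no such bound.

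Gapdh was read through the 3 control probe sets that the array carries along its transcript, and they disagreed. The set near the 3′ end fell by 0.22 ± 0.08 at 24 hours (adjusted p = 0.045, lost in 13 of 30 alternatives at up to 0.349), while the middle and 5′ sets gave 0.34 each. At day 14 the 3 sets gave -0.10, 0.45 and 0.34 in the same order. The mean difference between the 3′ and 5′ sets, a measure of how far transcripts were copied toward their 5′ end, was 1.33 without irradiation, 1.58 at 6 hours, 0.774 at 24 hours and 0.894 at day 14 on the log2 scale. It thus moved with the groups, and its part in the other results was not tested. The fall of the 3′ set turned to 0.10 with quantile normalization, to 0.17 with centring and to 0.15 with the mean of the 3 sets.

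Ldhb, the lactate dehydrogenase subunit that favours lactate oxidation, showed the largest rise of the 29 genes at 24 hours. Its signal was 565, 595, 557, 486 and 832 without irradiation and 2179, 1387, 1024, 1492 and 1238 at 6 hours. It was 2012, 2468, 2062, 2112 and 2106 at 24 hours and 845, 841, 1093, 748 and 773 at day 14. No 6-hour or 24-hour array overlapped with the non-irradiated group. Ldhb rose 2.37-fold at 6 hours (1.25 ± 0.18, adjusted p = 4.10e-06) and 3.59-fold at 24 hours (1.84 ± 0.18, adjusted p = 6.00e-09). Its rise of 0.51 ± 0.18 at day 14 (adjusted p = 0.0373) was lost in 9 of 30 alternatives, with an adjusted p of up to 0.113. All 4 probe sets of Ldhb were higher at both early times, by 0.47 to 1.25 and by 1.14 to 1.84. Ldha, the subunit that favours lactate formation, was 5759 ± 421, 6354 ± 452 and 6575 ± 334 in the first 3 groups, and rose to 8150 ± 723 at day 14 (0.50 ± 0.08, adjusted p = 4.24e-05).

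Slc16a1, a carrier of lactate and pyruvate, was low at both early times and high at day 14. It read 4246, 4449, 4553, 4161 and 4437 without irradiation and 1037, 1772, 1364, 1449 and 1135 at 6 hours. It read 1079, 1252, 1091, 1162 and 1128 at 24 hours and 6915, 7256, 6319, 7175 and 6915 at day 14. The arrays at 6 and 24 hours were below every non-irradiated array, and those at day 14 above every one. Slc16a1 fell by 1.72 ± 0.11 at 6 hours and by 1.94 ± 0.11 at 24 hours (adjusted p = 1.05e-11 and 1.05e-12), and rose by 0.66 ± 0.11 at day 14 (adjusted p = 1.53e-04). Its other probe set gave -2.43 and -2.80 at the early times but -0.62 at day 14, and with the mean of both the day 14 call was lost (adjusted p = 0.964). That set was much dimmer, at 197 ± 47.5 without irradiation and 129 ± 36.7 at day 14. It read 40.4 ± 23.2 at 6 hours and 41.7 ± 37.8 at 24 hours, near background, so its early changes have no exact size. Slc16a3, the lactate exporter of strongly glycolytic cells, read 450 ± 101 without irradiation, 183 ± 74.0 at 6 hours and 480 ± 51.6 at 24 hours. It fell by 1.36 ± 0.25 at 6 hours (adjusted p = 1.38e-04) and was 2.77-fold higher at 24 than at 6 hours (adjusted p = 7.93e-05).

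Of the pyruvate dehydrogenase kinases, Pdk1 fell at both early times and Pdk3 rose at day 14. Pdk1 read 847, 1113, 1027, 674 and 1009 without irradiation and 656, 412, 456, 69.7 and 453 at 6 hours. It read 283, 262, 356, 412 and 221 at 24 hours and 1135, 1477, 1484, 1175 and 1397 at day 14. Both early groups lay below every non-irradiated array and the day 14 group above every one. Pdk1 fell by 1.48 ± 0.37 and 1.62 ± 0.37 at 6 and 24 hours (adjusted p = 0.00339 and 0.00135), while its 0.53 ± 0.37 at day 14 did not pass (adjusted p = 0.325). That day 14 change passed as a rise in 3 of 30 limma alternatives. These were centring (adjusted p = 0.00298), the 2 groups alone (0.00575) and leaving out the fourth 6-hour array (0.0475). The other probe sets of Pdk1 gave -1.19, -1.26 and -0.11 at 6 hours and -1.14, -2.68 and -1.12 at 24 hours. At day 14 they disagreed, with 0.57, -1.38 and 0.60 in the same order. Pdk3 was 558 ± 69.9 without irradiation, 399 ± 185 at 6 hours and 628 ± 98.1 at 24 hours. It rose to 1101 ± 106 at day 14 (0.98 ± 0.23, adjusted p = 0.00353), with no overlap.

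All 4 measured genes of the pentose phosphate pathway fell at 6 hours, where 14.5% of all genes did. Rpia, the isomerase that forms ribose phosphate, read 2689, 2297, 2536, 2780 and 1627 without irradiation and 865, 1417, 633, 1501 and 983 at 6 hours. It read 1048, 1309, 842, 1313 and 1374 at 24 hours and 3814, 4032, 4478, 3703 and 3539 at day 14. The 3 ranges, early, non-irradiated and day 14, did not overlap. Rpia fell by 1.19 ± 0.19 at 6 hours and by 1.02 ± 0.19 at 24 hours, and rose by 0.73 ± 0.19 at day 14 (adjusted p = 3.16e-05, 1.90e-04 and 0.00822). The day 14 call of Rpia was lost with quantile normalization (adjusted p = 0.0761).

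Taldo1, the transaldolase of the branch that returns sugars to glycolysis, read 1599, 1498, 1761, 1559 and 1566 without irradiation and 1052, 965, 865, 1311 and 1079 at 6 hours. It read 1458, 1797, 1357, 1533 and 1676 at 24 hours and 3280, 3019, 3118, 3147 and 2842 at day 14. It was thus lowest at 6 hours, overlapped with the non-irradiated arrays at 24 hours and stood above all of them at day 14. Taldo1 fell by 0.61 ± 0.12 at 6 hours and rose by 0.95 ± 0.12 at day 14 (adjusted p = 2.50e-04 and 2.16e-06). Pgd, the second enzyme of the pathway to make NADPH, was 5563 ± 1087, 3667 ± 670, 7162 ± 679 and 5645 ± 611 in the 4 groups by time. Pgd fell by 0.60 ± 0.12 at 6 hours (adjusted p = 4.59e-04), rose by 0.38 ± 0.12 at 24 hours (adjusted p = 0.0206, lost in 3 of 30 alternatives at up to 0.0708) and was 1.97-fold higher at 24 than at 6 hours (adjusted p = 1.28e-06). Tkt, the transketolase, read 4795, 11550, 4721, 5981 and 4941 at 6 hours against 8728 to 10889 without irradiation, so that 1 of the 5 arrays stood above that whole range. Tkt fell by 0.71 ± 0.16 at 6 hours (adjusted p = 0.00102), and by 0.94 without that array (adjusted p = 6.13e-09). Centring ended the 6-hour calls of Pgd and Tkt (adjusted p = 0.105 and 0.0572).

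Since isozymes of a step share each array, their log2 ratio within an array does not depend on how arrays are scaled by a constant. Of 12 such pairs 11 could be measured, and each was compared at 3 times with a two-sided exact permutation test of 5 against 5 arrays. The smallest p this allows is 0.00794, which is 0.0164 after Benjamini-Hochberg adjustment over the 33 tests. Of the 11 pairs, 6 changed at 6 hours, 8 at 24 hours and 4 at day 14. Of single genes, limma called 27.4%, 29.5% and 22.4% at those times. The share among other gene pairs was not measured, so these counts have no like background. Hk1, Hk2, Hk3 and Pfkl each enter more than 1 pair. The ratio of Slc2a3 to Slc2a1 fell by 1.88 ± 0.25 at 6 hours and by 0.90 ± 0.17 at 24 hours, and was at -0.13 ± 0.14 at day 14. That of Ldhb to Ldha rose by 1.10 ± 0.24 and 1.65 ± 0.17 and was at 0.01 ± 0.17 at day 14. In both pairs the early changes had an adjusted p of 0.0164 and no overlap, and the day 14 arrays overlapped with the non-irradiated ones.

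The hexokinase pair changed in opposite directions early and late: the ratio of Hk2 to Hk1 rose by 1.03 ± 0.24 at 6 hours and 1.47 ± 0.14 at 24 hours, and fell by 0.74 ± 0.09 at day 14. The ratio of the lactate carriers Slc16a3 to Slc16a1 rose 4.14-fold at 24 hours (2.05 ± 0.14) and fell by 1.03 ± 0.17 at day 14. All of these had an exact adjusted p of 0.0164; the day 14 value of the carriers did not pass with quantile normalization or with the mean of probe sets. Pfkm to Pfkl fell by 1.76 ± 0.34 at 6 hours and 2.23 ± 0.17 at 24 hours, and Pfkp to Pfkl fell by 0.89 ± 0.17 at day 14. Pdk3 to Pdk1 rose by 1.78 ± 0.25 at 24 hours. Hk3 to Hk1 rose by 1.32 ± 0.12 at 24 hours and fell by 0.65 ± 0.13 at day 14, and each of these 6 values had the same exact adjusted p. Hk3 to Hk2 was lower at 6 hours by a log2 difference of -1.14 ± 0.50 (exact adjusted p = 0.0437), a call lost without any 1 of the non-irradiated arrays. Aldoc to Aldoa passed at 6 and 24 hours, but Aldoc was at background there. The early calls of Hk2 to Hk1, Pfkm to Pfkl and Aldoc to Aldoa at 6 hours were lost with the mean of probe sets. Pfkfb4 to Pfkfb3 passed at no time.

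**Figure D4:**
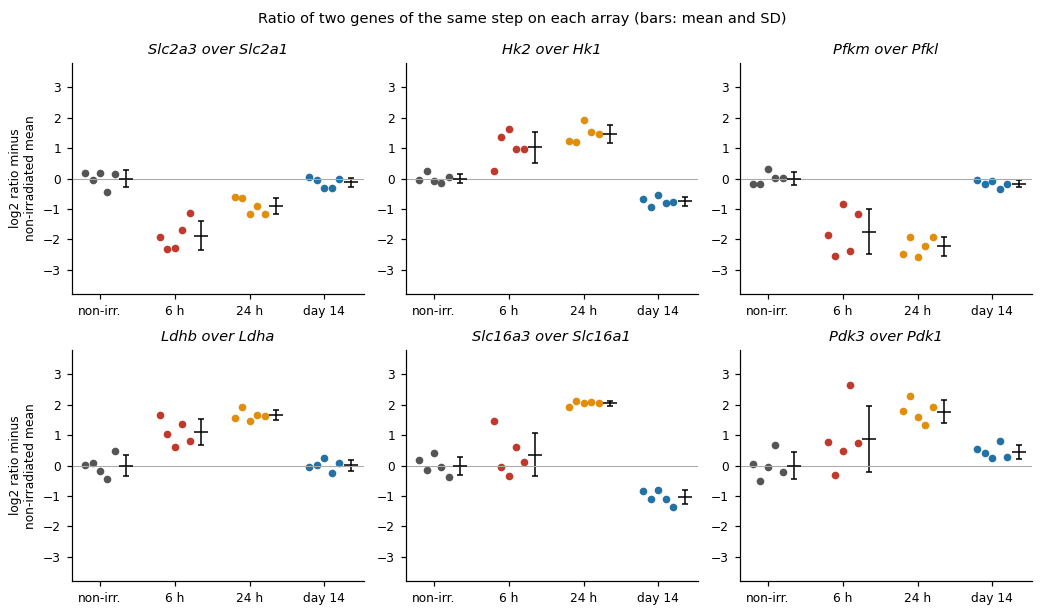
log2 ratio of 2 genes of the same step on each array, less the mean of the non-irradiated arrays, for 6 of the 11 pairs, with bars for the mean and SD of 5 arrays. Ldhb over Ldha is up by 1.65 at 24 hours and back at 0.01 by day 14, while Hk2 over Hk1 and Slc16a3 over Slc16a1 are up at 24 hours and below 0 at day 14.

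Markers of other cell types moved between the groups alongside these genes. The summed signal of the 9 measured erythroid markers, of 12 named, ran from 44079 to 47265 without irradiation, 5403 to 9778 at 6 hours, 2284 to 2977 at 24 hours and 52013 to 65110 at day 14. Of these 9, 8 fell at 6 and at 24 hours (14.5% and 13.8% of all genes fell). At day 14, 2 of the 9 rose, 0 fell and 7 did not pass (9.47% of all genes rose and 13.0% fell). Rhag was at background on all 24-hour arrays and Hba-a1 on all day 14 arrays. The group means of Slc16a1, Pfkm, Pdk1, Rpia and Hk1 were likewise lowest at 6 and 24 hours and highest at day 14. Of these 5 genes, only Slc16a1 and Rpia passed the test at day 14 against the non-irradiated arrays. The 5 measured proliferation markers, of 6 named, had the same order of median sums as the erythroid markers. All 5 fell at 6 and at 24 hours (14.5% and 13.8% of all genes fell). All 5 were higher at day 14 than at 24 hours (15.2% of all genes). Their sums were 32697 to 36706, 11799 to 16105, 9420 to 11004 and 32907 to 41284 by time, where day 14 overlapped with the non-irradiated arrays. The part of erythroid or of dividing cells in those results was not tested. The 12 endothelial markers summed to 12909 to 14586 without irradiation, 37485 to 43416 at 6 hours, 20635 to 22394 at 24 hours and 7618 to 8159 at day 14, and the group means of Slc2a1 had the same order. The 8 measured megakaryocyte markers of 9 named followed the same order, with 13823 to 15461, 37315 to 46928, 20089 to 21140 and 11229 to 12477. So did the median sums of the 6 measured stromal and smooth muscle markers of 7 named, with 54090 to 62138, 63122 to 78725, 55324 to 71322 and 42161 to 51492, where neighbouring groups overlapped in part. Of the 8 megakaryocyte markers, 8 rose at 6 hours and 5 at 24 hours (12.9% and 15.7% of all genes). At day 14, 5 of them fell (13.0% of all genes).

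Blood cell lists were measured too. Of the 10 granulocyte markers 8 fell at 6 hours (14.5% of all genes fell). At 24 hours 8 were higher and 2 lower than at 6 hours (13.7% and 10.1% of all genes). The sums of the 10 ran from 122111 to 141435, 92759 to 111694, 98728 to 124231 and 87333 to 108908. The 10 leukocyte markers summed to 48054 to 55171, 46041 to 53391, 48029 to 54324 and 38129 to 41370. The 8 measured monocyte markers of 10 named gave 19628 to 21758, 18758 to 21299, 22306 to 24578 and 14871 to 17787. The 7 measured B-lineage markers of 8 gave 2255 to 2714, 1617 to 3363, 2275 to 2840 and 2104 to 2374. Each sum is led by its brightest genes and can hide changes of dimmer ones. Of the 7 B-lineage markers, 1 rose and 3 fell at 24 hours (15.7% and 13.8% of all genes), with a median change of -1.35. At 6 hours 1 rose and 1 fell (12.9% and 14.5%), and at day 14, 0 rose and 0 fell (9.47% and 13.0%). The part of any of these cells in the results was not tested.

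**Figure D5:**
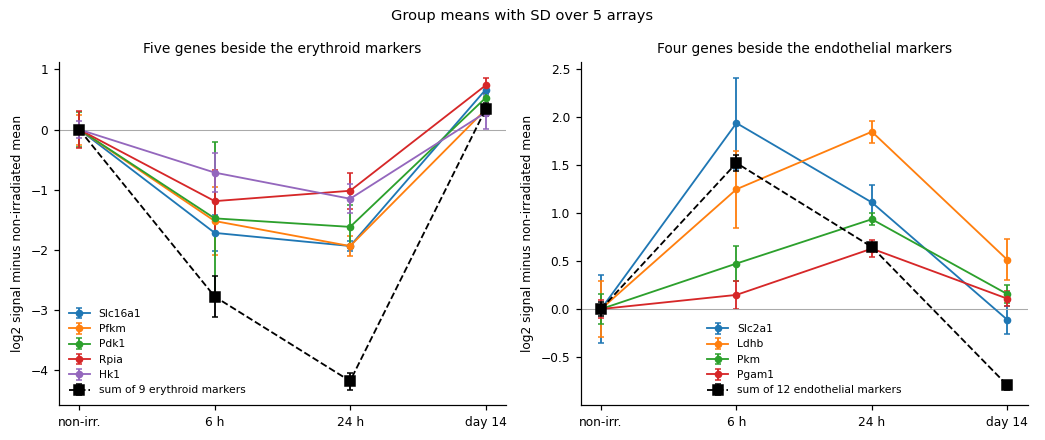
Group means, with bars for the SD of 5 arrays, of log2 signal less the non-irradiated mean for named genes, beside the log2 of the summed signal of a marker list; the genes were chosen after their values were seen. Slc16a1, Pfkm, Pdk1, Rpia and Hk1 lie below 0 at 6 and 24 hours, where the erythroid markers do (the proliferation markers, listed in the text, were lowest there too). Slc2a1 is highest at 6 hours, where the endothelial markers are. Ldhb, Pkm and Pgam1, in the same panel, are highest at 24 hours, where the endothelial markers are lower than at 6 hours.

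Of 38 further genes of the same pathways, 34 were measured: 4 rose and 10 fell at 6 hours (12.9% and 14.5% of all genes), 10 rose and 5 fell at 24 hours (15.7% and 13.8%), and 11 rose and 2 fell at day 14 (9.47% and 13.0%). Pklr, the pyruvate kinase of liver and red cells, read 3842, 4297, 4276, 3978 and 4288 without irradiation and 700, 124, 712, 400 and 369 at 6 hours. It read 132, 143, 209, 159 and 121 at 24 hours and 4840, 4122, 3819, 4495 and 3859 at day 14. Pklr fell by 3.40 ± 0.29 at 6 hours and by 4.77 ± 0.29 at 24 hours (adjusted p = 1.50e-09 and 2.37e-12), and its day 14 arrays overlapped with the non-irradiated ones. Pkm, the other pyruvate kinase gene, rose at both early times. Bpgm, which makes the phosphoglycerate that tunes haemoglobin in red cells, fell by 0.39 ± 0.09 and 0.45 ± 0.09 at the early times (adjusted p = 0.00149 and 3.00e-04) and rose by 0.56 ± 0.09 at day 14 (adjusted p = 6.12e-05). The early calls of Bpgm were lost after changes of processing, with an adjusted p of up to 0.746.

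Pdk4, a pyruvate dehydrogenase kinase induced by fasting, was 834 ± 214, 1838 ± 268, 3159 ± 266 and 1505 ± 136 in the 4 groups by time, and rose at all 3 times by 1.16, 1.95 and 0.88 (SE 0.15). H6pd, which feeds a pentose phosphate branch of the endoplasmic reticulum, rose from 637 ± 140 to 2372 ± 220 at 24 hours (1.92 ± 0.21, adjusted p = 6.54e-08). Fbp2, a fructose bisphosphatase of gluconeogenesis, was dim, at 89.9 ± 66.1 without irradiation and 17.9 ± 22.4 at day 14 (adjusted p = 0.00392).

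The hypoxia list of 20 genes holds factor subunits, genes that restrain them, and targets, so its counts mix these kinds. Of the 20, 7 rose and 2 fell at 6 hours (12.9% and 14.5% of all genes). Another 11 rose and 1 fell at 24 hours (15.7% and 13.8%), some of them the same genes, and 1 rose and 1 fell at day 14 (9.47% and 13.0%). The medians were 0.39, 0.61 and 0.01, against -0.02, -0.07 and -0.18 over all genes. Hif1a, the oxygen-regulated subunit, read 971 ± 103, 2799 ± 495, 2347 ± 140 and 1131 ± 155 by time, and rose by 1.51 ± 0.13 at 6 hours and 1.28 ± 0.13 at 24 hours (adjusted p = 1.23e-09 and 1.83e-08). Ndrg1, a stress-induced gene, rose by 2.01 ± 0.13 and 0.65 ± 0.13, P4ha2, a collagen prolyl hydroxylase, by 1.48 ± 0.27 and 1.67 ± 0.27, and Bnip3, a mitophagy receptor, by 1.35 ± 0.24 and 1.05 ± 0.24. Slc2a1 and Ldhb, whose upstream windows printed above hold the hypoxia core, rose at the same times. Rpia and Slc16a1, whose windows also hold the core, fell at those times. Of the 28 measured genes with a window, 26 held the core, so its presence hardly sets genes apart here. The part of the hypoxia factor in any of these changes was not tested.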

How the data were processed

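VE-cadherin+ marrow cells of non-irradiated mice and of mice at 6 hours, 24 hours and day 14 after irradiation were measured on 20 arrays, 5 per group. Per the labels' protocols, a Qiagen RNeasy micro kit was used for extraction and NuGEN Ovation V2 for amplification, with a biotin label. The deposited table holds 1 linear intensity per probe set and array; per the submitters' processing notes, the authors used Affymetrix Expression Console and Transcriptome Analysis Console. The summarization method is not given in the sources used here. From the values, each array is scaled to the same mean after trimming 2% at each end, which ties a gene's level to the rest of its array.

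Of 45101 probe sets, 34958 have 1 gene symbol in the platform annotation of 2016, 932 several and 9211 none. The brightest probe set with 1 symbol stood for each of 18194 genes, with the array's control sets used for Gapdh only. log2(signal + 1) was fitted with limma 3.58.1 in R 4.3.3 (lmFit, eBayes with an intensity trend, all 20 arrays), two-sided, Benjamini-Hochberg adjusted p under 0.05. Isozyme ratios had two-sided exact permutation tests in Python 3.11.15. The fit was tested on simulated data. Members, lists and pairs were chosen with earlier results of these data known; the background level was chosen after the data were seen. All 29 measured members may be named; of the other pathway and hypoxia lists, the 4 called genes with the largest change each, and always Bpgm, Pklr, Hif1a, Cdkn1a and Cdh5. Upstream windows come from RefSeq, build GRCm38.p6. The number of arrays limits the precision. Alternatives were quantile normalization, centring on array medians, leaving out dim genes (under the 40th percentile), the mean of probe sets, no cross-hybridizing probe sets, 16 added in place of 1, no trend, the 2 groups alone, array weights, a replicate block and leaving out each array.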

Additional observations from a re-analysis of the deposited data

Results flagged for a closer look

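In groups of 5 arrays, 6 of the 116 gene and group combinations tested had 1 array apart from the rest by Dixon's criterion at 95%; chance alone flags about 1 group in 20. Tpi1 read 1686 on the second non-irradiated array, against 2160 to 2356 on the others. Another 3 lay at 6 hours: Ldha read 5567 on the fourth array against 6440 to 6717, Pdk1 read 69.7 on that array against 412 to 656, and Tkt read 11550 on the second array against 4721 to 5981. At 24 hours Ldhb read 2468 on the second array against 2012 to 2112, and Tkt read 6768 on the fourth array against 7797 to 8112.

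The irradiated groups differed from each other, by limma's test of the difference, in 13 of the 29 genes between 6 and 24 hours (23.8% of all genes). On the log2 scale, 24 hours minus 6 hours was -0.83 for Slc2a1, 1.00 for Hk3, 1.41 for Tigar, 0.45 for Aldoa, 0.61 for Tpi1, 0.89 for Pgk1, 0.48 for Pgam1, 0.46 for Pkm, 0.60 for Ldhb, 1.47 for Slc16a3, 0.77 for Pdk3, 0.98 for Pgd and 0.58 for Taldo1. Apart from Slc2a1, these genes were higher at the later time. Of these 13 calls 9 held in every alternative; Pdk3 was lost in 3, and Tigar, Aldoa and Tpi1 in 1 each.

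Between 24 hours and day 14 the same test was passed by 20 of the 29 genes, 11 higher and 9 lower at day 14. Of all genes 36.9% passed it, 15.2% higher and 21.7% lower. Day 14 minus 24 hours was 1.43 for Hk1, 2.27 for Pfkm, 0.65 for Tpi1, 0.31 for Ldha, 2.60 for Slc16a1, 2.14 for Pdk1, 0.82 for Pdk3, 0.98 for Taldo1, 0.43 for Tkt and 1.75 for Rpia. Aldoc also passed, with a fitted 3.53 that has no exact size because it was at background at 24 hours. The genes lower at day 14 were Slc2a1 at -1.22, Slc2a3 at -0.44, Hk2 at -0.78, Pfkp at -0.82, Tigar at -1.32, Pgam1 at -0.52, Pkm at -0.78, Ldhb at -1.33 and Pgd at -0.34. After centring on array medians 2 genes were lower. Of these 20 calls 12 held in every alternative; Pgd was lost in 7 of 30, Tkt in 6, Slc2a3 in 5, Tigar in 2, and Hk2, Pfkp, Pgam1 and Pkm in 1 each.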

How the results depend on the processing

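Of the calls of the 29 genes against the non-irradiated group, 9 of 17 held in every alternative at 6 hours, 13 of 15 at 24 hours and 5 of 10 at day 14. Scaling had the widest reach. Centring on array medians gave 3531 genes higher and 1617 lower over all genes at 6 hours (2343 and 2640 as reported), with 8 and 7 of the 29; 4949 and 1139 at 24 hours (2861 and 2514), with 17 of the 29 higher; 8211 and 461 at day 14 (1723 and 2359), with 23 higher; and 4972 and 1687 between 24 hours and day 14 (2765 and 3944), with 2 lower. Quantile normalization gave 1135 genes lower at day 14, with 1 of the 29. Leaving out dim genes gave 1521 lower at day 14. The mean of probe sets gave 3625 lower at day 14, with 2 of the 29, 3 of the 29 lower at 24 than at 6 hours, and 3 isozyme pairs at 6 hours. Without cross-hybridizing probe sets 1 of the 29 was lower at day 14, and the ratio of Aldoc to Aldoa had no value. With the 2 groups alone, 3 of the 29 rose at 6 hours, 13 at 24 hours, 2909 of all genes rose and 3 of the 29 fell at day 14, 1634 of all genes were higher at 24 than at 6 hours, and 14 of the 29 were lower at day 14 than at 24 hours. Array weights gave 2685 genes higher and 3556 lower at day 14, with 2 of the 29 lower, and 14 lower at day 14 than at 24 hours. The causes were not tested.

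Centring turned the sign of Slc2a1 (0.79), Slc2a3 (0.66), Pfkfb3 (0.77), Gapdh (0.80) and Ndrg1 (0.71) at day 14, of Gapdh (0.17) and Taldo1 (0.35) at 24 hours, and of Slc2a3 (0.072) and Pgd (0.17) between 24 hours and day 14. Quantile normalization turned Gapdh at 24 hours (0.10) and between 6 and 24 hours (0.14). The mean of probe sets turned Gapdh at 24 hours (0.15), at day 14 (0.23) and between 6 and 24 hours (0.31), and Hif1a at day 14 (-0.61). The cause was not tested.

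Leaving out 1 array at a time gave 3 to 7 of the 29 genes higher at 6 hours, with 3 without the fourth 6-hour array. It gave 0 to 2 lower at day 14 (1 without the first 6-hour array, 2 without the third) and 1 to 3 lower at 24 than at 6 hours (2 without the first 6-hour array, 3 without the second or the fourth). The arrays of a replicate number do not pair: over 30 pairs of the same number the correlation of deviations ran from -0.067 to 0.049. With the replicate block, 5 of the 29 rose and 12 fell at 6 hours, 9 and 7 at 24 hours, and 9 and 0 at day 14; Ldhb was lost at day 14 and Tigar gained at 24 hours. Dim signals limit Aldoc and Fbp2, which lay near background. They also limit the 2 dimmer probe sets of Tigar, and the dimmer probe set of Slc16a1 at 6 and 24 hours.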
